A study of Rattus norvegicus with 21 samples.

Results

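The cytosolic ribosomal protein genes were followed in rat NBTII bladder carcinoma cells and in NBTII-FGFR1 cells over 48 h of FGF1. Members were the genes whose single symbol in the array annotation begins with Rpl or Rps followed by a digit, a, p0, p1 or p2, without the Rps6k kinases. The rule found 44 genes among 10411 symbols. They were read by 50 probe sets, and where a gene had several, the one with the highest mean over the 21 arrays stood for it. Of the 44 genes, 40 encode core proteins: 28 of 46 listed for the large subunit and 12 of 31 listed for the small subunit. The other 4 are the paralogs Rpl3l, Rpl7l1, Rps4y2 and Rps27l. A further 29 core proteins, Rps14 and Rps19 among them, were named only by probe sets that also carry symbols of paralogs or pseudogene copies, and are not members.

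The ribosome is built from ribosomal RNA and one copy of most of these proteins, so cells keep the proteins in balance. Their mRNAs are abundant in dividing cells. In vertebrates many of them begin with a terminal oligopyrimidine tract, a run of C and T bases through which mTOR signalling and the binding protein LARP1 control translation; an array reads the amount of mRNA and not its translation. Growth factors such as FGF1 are known to raise ribosome production, in part through ERK and mTOR signalling. Outside the ribosome, Rpl5 and Rpl11 can bind Mdm2 and so stabilise p53.

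Total RNA from 12 combinations of line and time was hybridised, 1 sample per array. NBTII cells had 1 array at 0 h, 1 at 0.5 h and 2 each at 2, 6, 24 and 48 h of FGF1 at 20 ng/ml with heparin, and NBTII-FGFR1 cells had 2 at 0 h, 1 at 0.5 h and 2 at each later time. NBTII-FGFR1 cells are the same rat line carrying, by name, the FGF receptor FGFR1; the labels call them transfected and state neither the vector nor whether the line is 1 clone. They do not say either that replicates came from separate cultures, so p-values measure the spread between samples that may be technical.

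Array medians of all probe sets lay between 6.13 and 6.21 log2 units, and of 8 markers of epithelial cells, Krt5, Krt8, Krt14, Cdh1 and Epcam were above the lower quartile on 21 of 21 arrays, Krt18 on 20, Krt7 on 17 and Krt19 on 0. Of 6 leukocyte markers Ptprc, Cd3e and Cd79b were above it on 0, Cd74 on 3, and Cd68 and Lyz2 on 21. The endothelial markers Pecam1 and Kdr were above it on 0 and Vwf on 1. Of 6 fibroblast markers Col1a2, Pdgfra, Dcn and Lum were above it on 0, Col3a1 on 4 and Col1a1 on 21. The Fgfr1 probe set lay between 3.58 and 4.05 in NBTII and between 4.56 and 7.58 in NBTII-FGFR1 cells at 2 to 48 h. At 0 h it was 3.97 in NBTII, 5.92 on NBTII-FGFR1 replicate 2 and 3.57 on the library labelled replicate 1 of NBTII-FGFR1 at 0 h. On this probe set that library thus goes against its label. Over all probe sets, its deviations from the means correlated most with NBTII-FGFR1 0 h replicate 2 (r = 0.68), which goes with its label. With NBTII 0 h the correlation was 0.52. The array NBTII-FGFR1 2 h replicate 1 also stood apart: over all probe sets, its deviations from the means correlated with NBTII 0.5 h at r = 0.55 and with its own replicate at 0.45. The second replicates of both lines at 2 h were also nearest to each other (r = 0.54), ahead of their own replicates (0.40 in NBTII and 0.45 in NBTII-FGFR1). The added polyA control RNAs averaged 6.13 to 6.64 on the 3 arrays at 0 h and 5.33 to 5.72 on the 18 later ones. These ranges do not overlap, so the shift cannot be told apart from time in differences from 0 h. Its part in them was not tested.

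Many members have a run of C and T bases near their annotated transcription start, though the run need not begin at the start itself. In RefSeq's table of starts on the rat build GRCr8, 39 of the 44 members have an entry, 37 matched by gene ID and 2 by symbol. A window of 40 bases was read for each, 20 before the start and 20 from it on. The following 9 were chosen to be shown: the 3 genes with a call, the 3 that varied most, the stalk anchor Rplp0, the member with the longest run and the muscle paralog Rpl3l. Capitals mark the longest run of C and T, 5′ to 3′ on the gene's own strand.
Rps3 (chr1:163195757-163195796, minus strand): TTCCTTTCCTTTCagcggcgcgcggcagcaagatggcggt
Rpl5 (chr14:1995206-1995245, minus strand): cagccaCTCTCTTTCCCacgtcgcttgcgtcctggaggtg
Rpl11 (chr5:153560783-153560822, minus strand): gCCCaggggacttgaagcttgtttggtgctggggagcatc
Rps28 (chr7:15311314-15311353, minus strand): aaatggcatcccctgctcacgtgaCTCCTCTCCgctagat
Rpl22 (chr5:168117941-168117980, plus strand): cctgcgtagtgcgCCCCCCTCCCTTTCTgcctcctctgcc
Rpl7l1 (chr9:21695698-21695737, plus strand): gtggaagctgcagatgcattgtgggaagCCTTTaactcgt
Rplp0 (chr12:46718371-46718410, minus strand): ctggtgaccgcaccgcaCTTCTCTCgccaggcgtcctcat
Rps23 (chr2:23814497-23814536, plus strand): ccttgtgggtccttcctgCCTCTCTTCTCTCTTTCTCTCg
Rpl3l (chr10:14258426-14258465, plus strand): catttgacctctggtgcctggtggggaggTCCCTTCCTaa

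The longest run had a median of 9 bases over the 39 members, from 3 in Rpl11 and others to 21 in Rps23, and a median of 5 over all 33469 windows of the table. A run of 8 or more was found in 26 members and in 15.5% of all windows. The letters CTTTC stood on the gene's own strand in 17 of 39 members, or 43.6%, against 4.97% of all windows, and on the opposite strand in 0 members against 5.07%. The annotated start base was a C in 15 members and in 24.1% of all windows. The match is a description of letters: annotated starts can be off by some bases, and a window without the run says only that the letters are not in it.

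Most members sat near the top of the measured range. Of the 44, 38 had a mean of at least 12 log2 units, where the brightest probe set of an array read 13.89 to 14.29, and 31 were within the highest 1% of probe sets on every array. Levels of different probe sets cannot be ranked against each other. Rpl7l1, a paralog of Rpl7, averaged 10.29. The 5 remaining members were low: Rps27l at 5.99, Rpl39 at 5.94, Rpl30 at 4.44, Rpl3l, a striated muscle form of Rpl3, at 4.39 and Rps4y2 at 4.06. Rpl39 and Rpl30 are core proteins of the large subunit. A probe set naming Rpl30 with its copies averaged 12.75, and one naming it with Rps10 averaged 12.88. The 4.44 of the Rpl30 member thus cannot be read as a low level of its mRNA.

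The members' group means lay close together. For each gene the lowest of the 12 group means was set against the highest: the median distance was 0.31 log2 units over the 44 members and 0.57 over all probe sets. At a mean of 12 or more it was 0.29 for 38 members and 0.44 for the 117 other probe sets of that brightness. Rps3a, Rpl3 and Rpl19 moved least, by 0.12, 0.13 and 0.16, and Rps28, Rpl22 and Rpl7l1 moved most, by 0.55, 0.50 and 0.48. The SD between replicates had a median of 0.10. Among the other probe sets at this brightness, Krt14, the basal keratin, averaged 13.89 at 2 h and 11.83 at 48 h in NBTII-FGFR1 cells, a difference of -2.06 ± 0.13 (SE; n = 2 and 2; limma adjusted p = 6.1e-07). Whether the ribosomal protein probe sets were saturated was not tested.

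**Figure D1:**
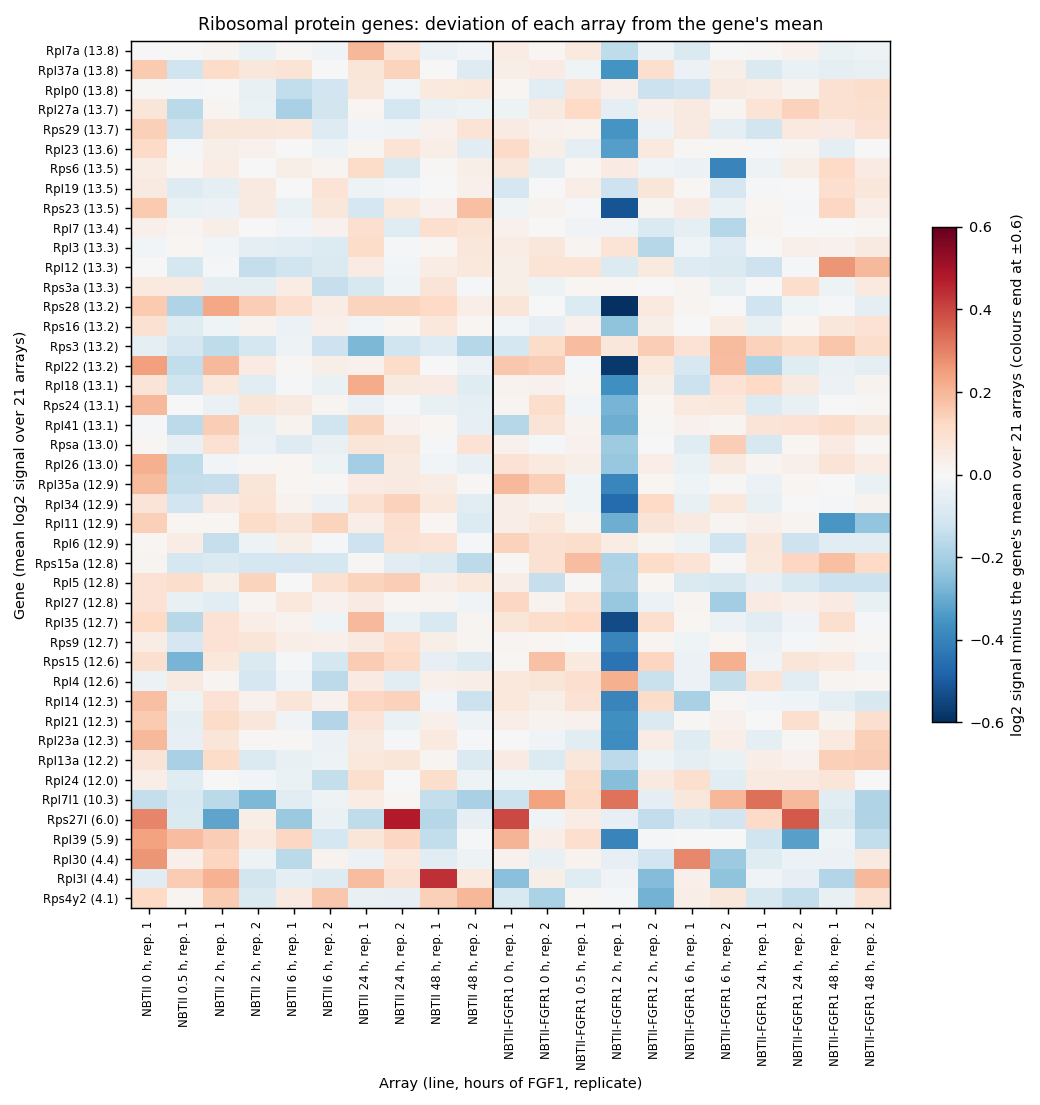
Each row is a ribosomal protein gene, ordered by its mean log2 signal (in brackets), each column an array, and the colour gives the log2 signal minus the gene's mean over 21 arrays. Most cells are pale, and the column NBTII-FGFR1 2 h replicate 1 is dark blue over 27 genes that had their lowest value there.

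The first question was whether these mRNAs changed within hours of adding FGF1 in either line. No later array was without FGF1, so FGF1, heparin and time in culture cannot be told apart in differences from 0 h. All differences from 0 h also carry the polyA shift given above. In NBTII cells 0 of 44 members passed the limma test (adjusted p under 0.05 over all 15866 probe sets) at 2, 6, 24 or 48 h against 0 h, where 2.94%, 5.9%, 0.939% and 0.908% of all probe sets passed. At an unadjusted p under 0.05, 0 members passed at any of these times. The median member differed from the single 0 h array by -0.07, -0.10, -0.05 and -0.08 log2 units in that order, where the median of all probe sets was -0.01, -0.01, 0.02 and 0.01. At 6 h, 43 of 44 members lay below 0 h. These 4 comparisons share that array.

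The largest NBTII difference was that of Rps27l, a p53-inducible paralog of Rps27. It read 6.28 at 0 h, 5.68 and 6.02 at 2 h, 5.77 and 5.95 at 6 h, 5.84 and 6.47 at 24 h, and 5.82 and 5.94 at 48 h. Replicates at 24 h lay on both sides of the 0 h value. The difference at 2 h was -0.43 ± 0.23 (SE; n = 2 and 1), with a 95% interval from -0.93 to 0.06 and a limma adjusted p of 0.42. Ahead of that, at 0.5 h, 0 of 44 members passed over both lines together, where 2.2% of all probe sets did; 1 had an unadjusted p under 0.05, and the median member differed by -0.06.

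In NBTII-FGFR1 cells, whose 0 h group has 2 arrays, 0 of 44 members passed at 2, 6 and 24 h and 1 passed at 48 h, against 9.35%, 21.3%, 6.3% and 21.4% of all probe sets. The counts at an unadjusted p under 0.05 were 5, 0, 1 and 1. Median differences from 0 h were -0.12, -0.03, -0.03 and -0.01, where all probe sets had -0.06, 0.02, -0.02 and -0.04. Every one of the 44 estimates was within 0.5 log2 units of 0 at each of the 4 times. The 95% intervals were within 0.5 for 35 members at 2 h, 43 at 6 h, 41 at 24 h and 40 at 48 h, and within 1 for all 44 at all 4 times. The 28 large subunit genes had a median of -0.06 at 6 h and -0.03 at 48 h, and the 12 small subunit genes -0.0034 and 0.03.

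Rplp0 and Rpl13a are often used to scale other measurements. Rplp0, which anchors the stalk of the large subunit, read between 13.64 and 13.89 over the 21 arrays, with a median of 13.80. Its difference from 0 h in NBTII-FGFR1 cells was largest at 48 h, 0.13 ± 0.10, with a 95% interval from -0.09 to 0.34. Rpl13a, whose product is released from the ribosome in interferon responses, read 12.15 on average at 2 h and 12.39 at 48 h, a difference of 0.24 ± 0.10 (limma adjusted p = 0.13). Rps6, the small subunit protein that S6 kinases phosphorylate, averaged 13.55 at 0 h and 13.63 at 48 h, and its lowest single reading was 13.15, on NBTII-FGFR1 6 h replicate 2, where replicate 1 read 13.51. Without 6 h replicate 1, Rps6 differed from 0 h by -0.40 with a limma adjusted p of 0.038; with both replicates the difference was -0.22 ± 0.12 (adjusted p = 0.23).

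**Figure D2:**
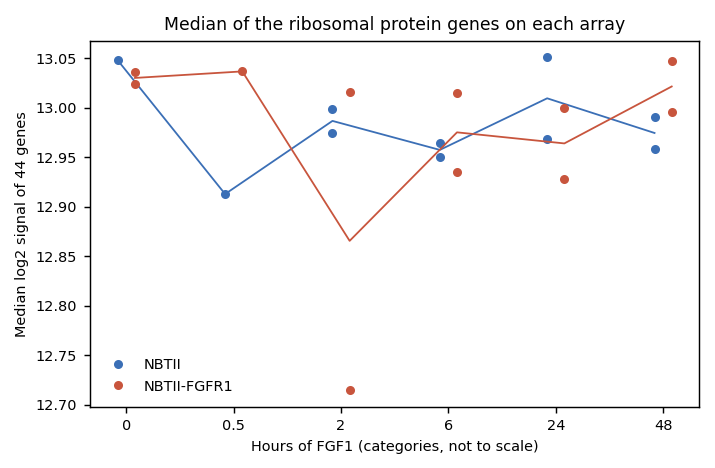
Each point is the median log2 signal of the 44 ribosomal protein genes on an array, by hours of FGF1, and lines join the group means of each line. Apart from NBTII-FGFR1 2 h replicate 1 at 12.71, all arrays lie between 12.91 and 13.05.

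Rpl11 was the only member to pass against 0 h. It is a large subunit protein that binds Mdm2 together with Rpl5 and 5S ribosomal RNA. In NBTII-FGFR1 cells it read 12.91 and 12.93 at 0 h and 12.52 and 12.63 at 48 h. Between these times it read 12.89 to 12.95 on all arrays but 2 h replicate 1, at 12.58, so the 48 h arrays and that one are the lowest of the line. In NBTII it read 13.01 at 0 h and 12.88 and 12.79 at 48 h. The NBTII-FGFR1 difference was -0.35 ± 0.12 (SE; n = 2 and 2; 0.79-fold; limma adjusted p = 0.048), just inside the threshold. The call was lost in 14 of 18 fits that leave out 1 array (adjusted p up to 0.27), the 0 h libraries of both replicate numbers among them, and after a repeated quantile normalization (-0.27, adjusted p = 0.089). Leaving out the 2 arrays that stood apart gave -0.36 with an adjusted p of 0.064.

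Several of the widest swings in the family came from the array NBTII-FGFR1 2 h replicate 1. Rps28, a small protein of the small subunit, read 12.47 on it and 13.30 on its replicate; its 0 h values were 13.32 and 13.25. Rpl22, a large subunit protein that also binds other RNAs, read 12.57 and 13.22 at 2 h and 13.31 and 13.30 at 0 h. Rps23, a protein of the decoding centre, read 12.94 and 13.48 at 2 h and 13.43 and 13.48 at 0 h. In all 3 genes replicate 1 was the lowest of the 21 arrays, while replicate 2 was close to the 0 h arrays. The differences of the means at 2 h were -0.40 ± 0.18 for Rps28, -0.41 ± 0.16 for Rpl22 and -0.25 ± 0.14 for Rps23, with limma adjusted p-values of 0.20, 0.14 and 0.33.

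Over the family, replicate 1 was below replicate 2 in 32 of 44 members. The difference, replicate 1 minus replicate 2, had a median of -0.27 log2 units and reached -0.84 in Rps28. It was the lowest array for 27 of 44. Over all probe sets the median of the same difference was 0.01, and over the other probe sets at a level of 12 or more it was 0.03. In the other 8 groups with replicates the median member difference was between -0.02 and 0.04. Some members did not follow: Rpl7l1 read 10.62 on replicate 1 and 10.23 on replicate 2, and Rplp0 read 13.82 and 13.66. Why these mRNAs read low on that array was not tested.

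The 2 h result therefore depended on which replicate was used. With replicate 1 alone, 13 members passed against 0 h, all lower, where 5.69% of all probe sets passed as lower. Among them were Rps28 (-0.82), Rpl22 (-0.73), Rpl35 (-0.62), Rpl35a (-0.56), Rps15 (-0.53), Rps23 (-0.52) and Rps9 (-0.41). With replicate 2 alone, 0 passed, where 8.65% of all probe sets did, and the median member differed by -0.0092. At 48 h against 2 h, 0 of 44 members passed in NBTII-FGFR1 cells (17.7% of all probe sets), 6 had an unadjusted p under 0.05, and 38 were higher, with a median of 0.14 where all probe sets had 0.03. With replicate 1 as the only 2 h array 11 members passed as higher, as did 9.51% of all probe sets, and with replicate 2 as the only one the median was 0.01. In NBTII cells 0 of 44 passed at 48 h against 2 h (5.02% of all probe sets), with a median of -0.01.

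**Figure D3:**
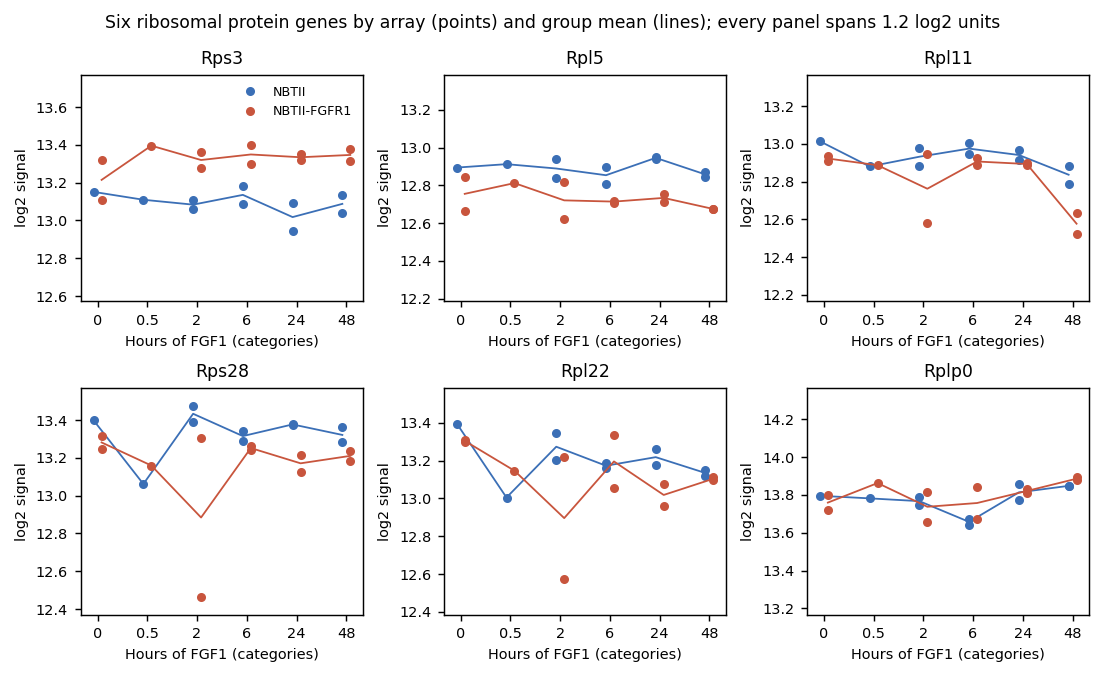
Log2 signal on each array (points) and group means (lines) by hours of FGF1 for 6 ribosomal protein genes, with NBTII in blue and NBTII-FGFR1 in red. Rps3 is higher in NBTII-FGFR1 at every later time, Rpl11 is low at 48 h in NBTII-FGFR1, and single low points at 2 h mark Rps28 and Rpl22.

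The second question was whether the lines differed once FGF1 was present. Over 2 to 48 h, 2 of 44 members passed the limma test between the lines, where 16.5% of all probe sets did; 8 members had an unadjusted p under 0.05. The median difference, NBTII-FGFR1 minus NBTII, was -0.04 log2 units over the members and -0.03 over all probe sets. All 44 differences had 95% intervals within 0.5. In an F test of whether the line difference varied over the 4 times, 0 of 44 members passed, where 0.441% of all probe sets did, and 0 members had an unadjusted p under 0.05.

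Rps3, a small subunit protein at the mRNA entry channel that is also known in DNA repair, was higher in NBTII-FGFR1 cells. Its lowest, median and highest readings over the 8 arrays of 2 to 48 h were 12.94, 13.09 and 13.18 in NBTII and 13.28, 13.34 and 13.40 in NBTII-FGFR1. The groups did not overlap, which held for 1 of the 44 members and for 0.725% of all probe sets. At 0.5 h the values were 13.11 and 13.40. At 0 h NBTII read 13.15, NBTII-FGFR1 replicate 2 read 13.32, and the library labelled replicate 1 of NBTII-FGFR1 at 0 h read 13.11, on the NBTII side, as its Fgfr1 reading was. The difference over 2 to 48 h was 0.26 ± 0.05 (SE; n = 8 and 8; 1.19-fold; limma adjusted p = 0.0047). It passed in all 18 fits that leave out 1 array, at 0.24 to 0.27.

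Rpl5, the partner of Rpl11 in binding 5S ribosomal RNA and Mdm2, was lower in NBTII-FGFR1 cells. It read 12.81, 12.88 and 12.95 (lowest, median, highest of 8) in NBTII and 12.62, 12.71 and 12.82 in NBTII-FGFR1. The groups touch, since the highest NBTII-FGFR1 array lies above the lowest NBTII array. The difference was -0.18 ± 0.05 (SE; n = 8 and 8; 0.89-fold; limma adjusted p = 0.032). It lost the call in 12 of 18 fits that leave out 1 array, with adjusted p-values up to 0.073, and without the 2 arrays that stood apart (-0.15, adjusted p = 0.059).

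Next in order came members that did not pass. Rpl7l1 differed by 0.20 ± 0.07 (adjusted p = 0.062), Rps15a, a small subunit protein, by 0.15 ± 0.05 (adjusted p = 0.071) and Rps28 by -0.23 ± 0.09 (adjusted p = 0.094). Without NBTII-FGFR1 2 h replicate 2, 11 members passed between the lines, where 20.3% of all probe sets did. They included Rps28 (-0.34), Rpl22 (-0.23), Rpl39 (-0.21) and Rpl11 (-0.18), and Rpl7l1 (0.25) was higher. Rpl3l and Rps4y2, at 4.32 and 4.01 in NBTII-FGFR1 cells, were near the lower quartile of the arrays (4.36 to 4.54), where differences between the lines cannot be read as presence or absence.

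**Figure D4:**
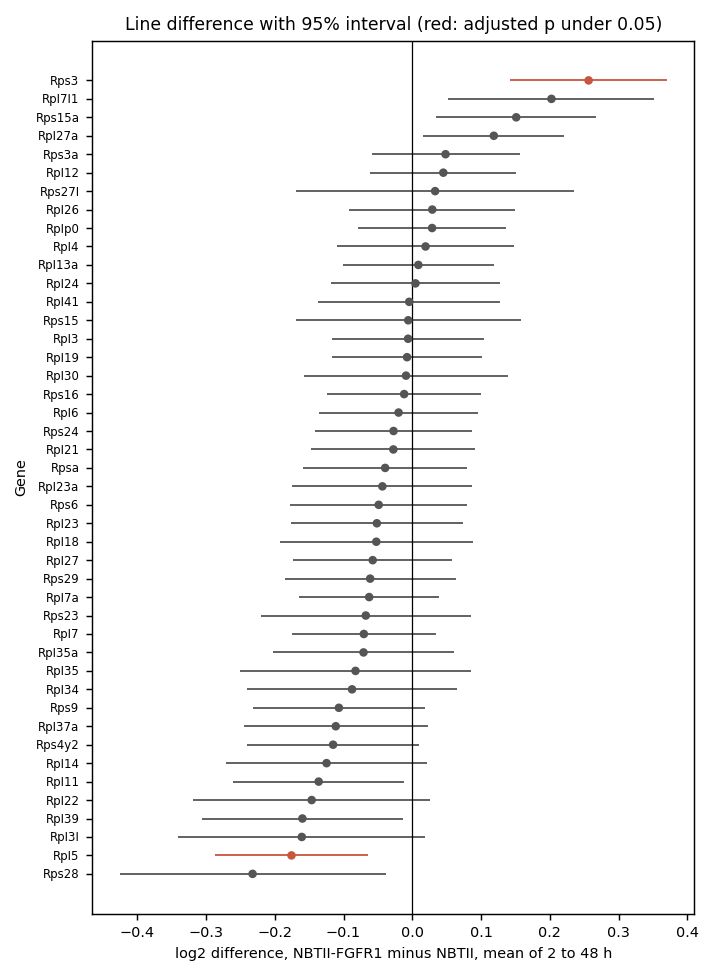
For each of the 44 genes, the point gives the log2 difference NBTII-FGFR1 minus NBTII averaged over 2, 6, 24 and 48 h, and the bar its 95% interval; red marks an adjusted p under 0.05. Rps3 at 0.26 and Rpl5 at -0.18 are red, and all intervals lie between -0.43 and 0.37.

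Where a gene had more than 1 probe set, the other one sometimes gave another answer. The second Rps24 probe set had a mean of 5.06, against 13.13 for the one that stood for this small subunit gene. It read 5.58 and 5.93 at 0 h in NBTII-FGFR1 cells, 4.98 and 4.67 at 6 h, 5.03 and 4.60 at 24 h, and 4.67 and 4.61 at 48 h. All 6 later values were below both at 0 h, while the NBTII array at 0 h read 4.96, lower than 6 of the 8 NBTII arrays of 2 to 48 h. The differences in NBTII-FGFR1 cells were -0.93 ± 0.20 at 6 h (limma adjusted p = 0.0041) and -1.11 ± 0.20 at 48 h (adjusted p = 0.0010), where the brighter probe set gave -0.00019 and -0.06. The second Rpl7l1 probe set fell by 0.50 ± 0.14 from 2 h to 48 h (adjusted p = 0.018), where the first gave -0.25 ± 0.14 (adjusted p = 0.26). Another probe set for Rpsa, the laminin receptor protein of the small subunit, carries a suffix that marks possible binding of related transcripts. It was lower in NBTII-FGFR1 cells (-0.18, limma adjusted p = 0.042). The brightest Rpsa probe set gave -0.04 (adjusted p = 0.66), and the remaining one gave -0.11 (adjusted p = 0.14).

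The 33 probe sets that name a ribosomal protein among several symbols were read separately. Their median difference from 0 h in NBTII-FGFR1 cells was -0.19 at 2 h, -0.08 at 6 h, -0.05 at 24 h and -0.02 at 48 h. They gave 3 calls in all comparisons together. A probe set for Rps25 and its copies was lower at 2 h (-0.47 ± 0.14, adjusted p = 0.048), and one for Rpl36 and its copies was lower in NBTII-FGFR1 than in NBTII cells (-0.37 ± 0.12, adjusted p = 0.046). One for the Rpl22l1 group, paralogs of Rpl22, rose from 2 h to 48 h in NBTII-FGFR1 cells (0.84 ± 0.19, adjusted p = 0.0059). Such probe sets cannot be assigned to 1 gene.

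Of 42 listed assembly and nucleolar factors measured, 25 fell and 1 rose in NBTII-FGFR1 cells at 6 h, 1 fell at 24 h and 29 fell at 48 h, where 21.3%, 6.3% and 21.4% of all probe sets passed in either direction. The list's medians were -0.52, -0.04 and -0.59. The gene that rose at 6 h was Grwd1, a ribosome assembly chaperone, by 0.54. Nop58, a core protein of the small nucleolar particles that guide methylation of ribosomal RNA, fell by 0.76 ± 0.12 at 6 h and by 0.90 ± 0.12 at 48 h (limma adjusted p = 0.00032 and 7.3e-05). Fbl, the methyltransferase of the same particles, fell by 1.08 ± 0.13 at 48 h (adjusted p = 6.1e-05). Noc2l, a nucleolar export factor, fell by 0.90 ± 0.12 at 6 h (adjusted p = 0.00013). At 2 h 11 fell, but only 1 or 2 did without 1 of the 0 h arrays (1 without the library labelled replicate 1 of NBTII-FGFR1 at 0 h, 2 without replicate 2) and 6 without 2 h replicate 1. The count at 6 h was 15 without 6 h replicate 2, and the count at 48 h was 17 without the library labelled replicate 1 of NBTII-FGFR1 at 0 h and 18 without 48 h replicate 1. For the 2 h count in NBTII-FGFR1 cells, 647 of all 15866 probe sets passed as lower. In NBTII cells 0 of the 42 passed against the single 0 h array at 2, 6, 24 and 48 h. There 2.94%, 5.9%, 0.939% and 0.908% of all probe sets passed, and the list's medians were -0.28, -0.10, 0.10 and -0.17.

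The mitochondrial ribosome, a separate machine whose proteins are also coded in the nucleus, gave 71 measured genes. In NBTII-FGFR1 cells 14 fell at 2 h, 20 fell at 6 h and 17 fell and 1 rose at 48 h, with medians of -0.39, -0.24 and -0.14, while 0 passed at 24 h. All probe sets passed in either direction at 9.35%, 21.3% and 21.4% at 2, 6 and 48 h. As lower alone, 647, 1893 and 1734 of all 15866 probe sets passed at 2, 6 and 48 h. In NBTII cells 5 fell at 2 h, 3 at 6 h and 0 at 24 and 48 h, with medians of -0.31, -0.35, -0.0017 and -0.27. There 156, 349, 59 and 52 of all 15866 probe sets passed as lower. Leaving out 1 array at a time gave 1 to 8 in NBTII at 2 h and 1 to 12 at 6 h. Mrpl4 fell by 0.62 ± 0.10 at 6 h and by 0.50 ± 0.10 at 48 h (limma adjusted p = 0.00068 and 0.0027), and Mrps9 by 0.75 ± 0.14 and 0.78 ± 0.14 (adjusted p = 0.0015 and 0.00096). The count at 2 h was 2 without the library labelled replicate 1 of NBTII-FGFR1 at 0 h, 9 without replicate 2 of 0 h, 5 without 2 h replicate 1 and 46 without 2 h replicate 2. Leaving out the library labelled replicate 1 of NBTII-FGFR1 at 0 h left 7 called at 6 h and 7 at 48 h. Leaving out replicate 2 of 0 h left 13 at 6 h, leaving out 6 h replicate 1 or 2 left 9 or 12, and leaving out 48 h replicate 1 or 2 left 5 or 6 at 48 h. The genes of the cytosolic ribosome had medians of -0.03 and -0.01 at these times, with 0 and 1 of 44 called; whether the lists differ was not tested.

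Of 12 measured translation factors and others with oligopyrimidine tract mRNAs, 3 fell at 6 h and 3 at 48 h in NBTII-FGFR1 cells. The list's medians were -0.15 and 0.01. All probe sets passed in either direction at 21.3% and 21.4%, and 1893 and 1734 of all 15866 passed as lower. Eef1d, a subunit of the exchange factor of elongation, fell by 0.37 ± 0.11 and 0.38 ± 0.11 (adjusted p = 0.022 and 0.018), and Nap1l1, a histone chaperone with such an mRNA, by 0.73 ± 0.18 and 0.64 ± 0.18 (adjusted p = 0.0079 and 0.016). The smallest p of the list at 48 h was that of Hnrnpa1, which differed from 0 h by -0.96 ± 0.12 (limma adjusted p = 4.7e-05). Leaving out either 0 h array left 1 called at each time. The count at 6 h was 1 without 6 h replicate 1 and 0 without replicate 2, and at 48 h it was 1 without either 48 h array.

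Of 20 measured genes of initiation and of the mTOR and S6 kinase pathway, 4 fell and 1 rose at 6 h and 2 fell and 1 rose at 48 h, where 21.3% and 21.4% of all probe sets passed. Eif4ebp2, an inhibitor of cap binding that mTOR switches off, fell by 0.65 ± 0.12 at 6 h and by 1.02 ± 0.12 at 48 h (limma adjusted p = 0.00097 and 3.0e-05). Its relative Eif4ebp1 fell by 0.55 ± 0.17 at 6 h and rose by 0.69 ± 0.17 at 48 h (adjusted p = 0.035 and 0.010). Mtor itself fell by 0.71 ± 0.19 at 6 h (adjusted p = 0.016). The 5 calls at 6 h became 2 without the library labelled replicate 1 of NBTII-FGFR1 at 0 h, 3 without replicate 2 and 1 without 6 h replicate 2; the 3 calls at 48 h became 1 without the library labelled replicate 1 of NBTII-FGFR1 at 0 h or without 48 h replicate 1.

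Of 3 listed genes of the p53 axis, 3 rose in NBTII-FGFR1 cells at 2 h, 2 at 6 h, 0 at 24 h and 3 at 48 h. Of all 15866 probe sets, 836, 1489, 566 and 1659 passed as higher at these times. In NBTII cells 2 of the 3 rose at 2 h, 1 at 6 h and 0 at 24 and 48 h. There 310, 587, 90 and 92 of all probe sets passed as higher. Mdm2, the ubiquitin ligase that free Rpl5 and Rpl11 bind, rose in NBTII-FGFR1 cells by 0.98 ± 0.17 at 6 h and by 1.08 ± 0.17 at 48 h (limma adjusted p = 0.00089 and 0.00041). In NBTII cells it rose by 1.06 ± 0.21 at 2 h and by 1.10 ± 0.21 at 6 h (adjusted p = 0.013 and 0.0063). With only the arrays compared in the model, 2 against 1, 0 of the 3 genes passed in NBTII at 2 h and 0 at 6 h. So few arrays give little power, and that fit cannot decide whether the rises hold. Cdkn1a, the cell cycle inhibitor p21, rose in NBTII-FGFR1 cells by 1.95 ± 0.31 at 6 h and by 1.11 ± 0.31 at 48 h (adjusted p = 0.00046 and 0.018). Ccng1, cyclin G1, rose there by 0.76 ± 0.16 at 48 h (adjusted p = 0.0027). The member Rps27l, also a p53 target, averaged 6.18 at 0 h, 5.89 at 6 h and 5.86 at 48 h in NBTII-FGFR1 cells (adjusted p = 0.33 and 0.29).

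**Figure D5:**
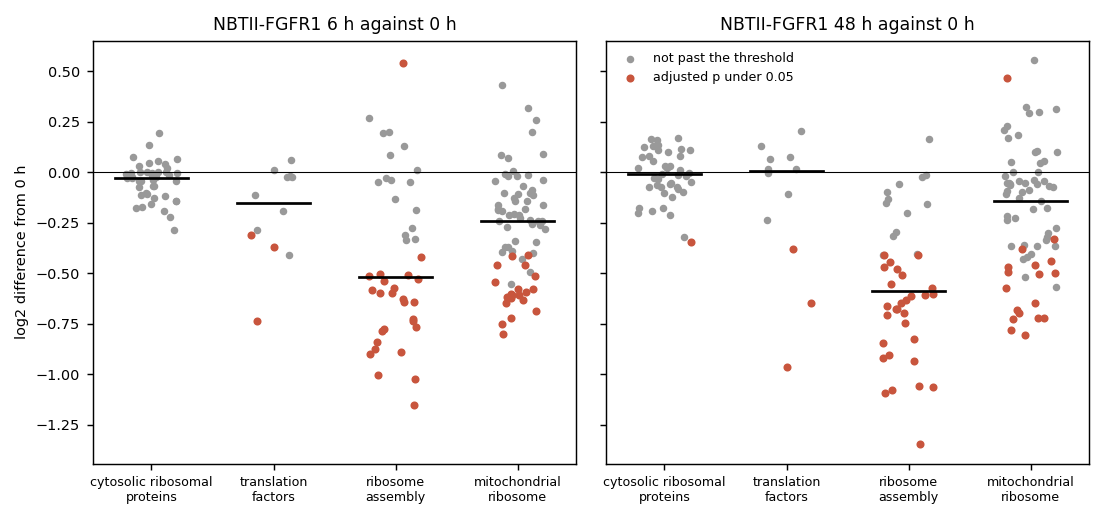
Each point is a gene's log2 difference from 0 h in NBTII-FGFR1 cells at 6 h (left) and 48 h (right), black bars are list medians, and red marks an adjusted p under 0.05. The 44 cytosolic ribosomal protein genes lie between -0.35 and 0.19 with 1 red point at 48 h, and the ribosome assembly factors have medians of -0.52 and -0.59.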

How the data were processed

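Total RNA was measured on 21 Affymetrix arrays. The deposited values are log2 signals; per the submitters' processing notes the authors used RMA, whose version those notes do not give. Of 15923 probe sets, 57 controls were left out and 15866 tested, with no low-signal filter. The annotation gives 12783 of them 1 symbol, 312 several and 2771 none. Groups came from the titles. A limma 3.58.1 model (R 4.3.3) gave each of the 12 groups a mean, with 9 residual and 5.68 prior degrees of freedom; the 3 groups of 1 array borrow their spread from the rest. Adjustment was by Benjamini-Hochberg over 15866 probe sets within each of 13 comparisons, with a threshold of 0.05. Intervals are 95% from the moderated t distribution. The script was tested on simulated data with known answers. For NBTII-FGFR1 6 h against 0 h, 28% of 100 planted differences of 0.5 log2 units were recovered, and 82% of 100 planted differences of 1. Differences of these sizes can therefore be missed. Between the lines over 2 to 48 h the shares were 84% and 100%. Members, lists and named genes were chosen with earlier results of these data known. Named were the members called in any comparison, the 3 widest and narrowest by group mean, paralogs, and members fixed for their known roles; Rps9, Rps15, Rps15a, Rps23, Rpl35, Rpl35a, Rpl30 and Rpl39 were named after their values were seen. Alternatives were a replicate block, only the arrays compared, quantile normalization, trend with robust variances, array weights, a low-signal filter, the mean of a gene's probe sets, no cross-hybridizing probe sets, leaving out each array or the pair of arrays that stood apart, and, added after seeing the data, the 33 probe sets of several symbols. Python 3.11.15 with pandas 2.3.3, numpy 2.4.6 and matplotlib 3.10.9 handled tables and figures. Start windows are RefSeq's (GRCr8). Precision is limited by the number of arrays.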

Additional observations from a re-analysis of the deposited data

How the results depend on the processing

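Over the planned and added settings other than leaving out 1 array, 241 values of the members' counts and medians were held the same and 9 moved. A median was held the same within 0.08 log2 units of the main value, whatever its sign. That bound is the SD between replicates of the arrays' median member signal. The widest pair in it was NBTII-FGFR1 2 h, at 12.71 and 13.02. Most main medians lay within the bound of 0, so being held the same says little about them. A count was held the same if its ratio to the main count stayed small. Reversals of direction were not counted for these values. The median NBTII-FGFR1 difference at 2 h against 0 h was -0.12, and it was -0.0192 without both arrays that stood apart; for 48 h against 2 h it was 0.14 and then 0.0129. Adding the probe sets of several symbols gave 1 call at 2 h against 0 h and 1 at 48 h against 2 h. Taking the mean of a gene's probe sets gave 1, 1 and 2 calls at 6, 24 and 48 h against 0 h, through Rps24. The 1 call at 48 h became 0 after repeated quantile normalization and 0 without both arrays that stood apart. The cause was not tested.

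Leaving out each array in turn gave 0 to 13 calls and a median of -0.24 to -0.0092 at 2 h against 0 h in NBTII-FGFR1 cells, 0 to 1 calls at 6 h, 0 to 1 at 48 h, 0 to 11 calls and a median of 0.0129 to 0.29 for 48 h against 2 h, 1 to 11 between the lines and 0 to 1 (Rps28) for line by time.

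With the replicate number as a block, 2 members were called between the lines and 1 at 48 h. No count or median of the members moved by the same rule. Over 36 pairs of groups the correlation of same-numbered deviations ran from -0.131 to 0.348, with a median of 0.0226 and 15 over 0.1, so the numbers were not taken to pair all samples. They did deviate together among NBTII at 2 to 48 h (6 of 6 pairs, 0.115 to 0.232) and among NBTII-FGFR1 at 2, 6 and 24 h (3 of 3 pairs, 0.174 to 0.348). NBTII-FGFR1 48 h did not join them: its correlations with 2, 6 and 24 h were -0.106, -0.0437 and -0.0155. Pairs across the lines lay on both sides of 0. NBTII 6 h with NBTII-FGFR1 24 h gave 0.17, and NBTII 2 h with NBTII-FGFR1 24 h gave -0.131.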
